A study of Mus musculus with 15 samples.

Results

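The genes described here are 9 components of adrenergic signalling in mouse adipose tissue, chosen by name: 4 receptors (Adrb1, Adrb3, Adra1a and Adra2a), 3 receptor kinases (Grk3, Grk5 and Grk6) and 2 phosphodiesterases (Pde3b and Pde4d). The choice was made with earlier results of these data known. The genes are 9 of the 37991 gene identifiers in the count table, and all 9 passed the filter on low counts in every comparison. Polyadenylated RNA was sequenced from 15 libraries of C57BL/6 mice in 4 groups. Inguinal white adipose tissue of postnatal day 24 gave 3 libraries from IL-33 knockout mice (numbered 2 to 4) and 4 from wild-type mice. Brown adipose tissue of postnatal day 0.5 gave 4 libraries labelled IL-33 knockout and 4 wild-type libraries. IL-33 is a cytokine that acts through the receptor ST2, and the title of the series concerns how both bear on heat production by UCP1, the uncoupling protein of brown and beige fat. The labels do not say which part of Il33 was deleted, nor whether each library is its own animal, so the spread behind the p-values may be technical.

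Noradrenaline from sympathetic nerves acts on adipocytes through beta-adrenergic receptors, which couple to Gs, raise cyclic AMP (cAMP) and activate protein kinase A, the trigger of lipolysis and of heat production. Alpha1 receptors couple to Gq and calcium release, and alpha2 receptors to Gi, which lowers cAMP. G-protein-coupled receptor kinases (GRKs) phosphorylate receptors that hold an agonist, which recruits arrestins and uncouples the receptor from its G protein. Phosphodiesterases break cAMP down and so end the signal, and PDE3B is the form through which insulin restrains lipolysis in adipocytes.

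Knockout and wild-type inguinal tissue differed in 6 of these 9 genes at an adjusted p below 0.05, where 28.6% of all genes tested did. In knockout inguinal tissue the beta3 receptor Adrb3 was lower, and the beta1 receptor Adrb1, the alpha1A receptor Adra1a, the kinases Grk3 and Grk5 and the phosphodiesterase Pde4d were higher. Changes ran from 1.42-fold higher for Grk5 to 2.32-fold higher for Adra1a, with Adrb3 1.68-fold lower. In newborn brown tissue 1 of the 9 genes passed beside 0.26% of all genes. It was Grk3, in the opposite direction to the inguinal depot, at a level 2.52-fold lower in the libraries labelled knockout. In whole tissue, fewer cells of a type and less RNA per cell cannot be told apart.

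RefSeq promoter sequences of the mouse build GRCm38.p6, reaching from 250 bases before to 50 bases after a gene's start, were matched for 5 of the 9 genes. Those of the 3 genes that rose in knockout inguinal tissue and had an entry follow, all on the forward strand, because the responses to cAMP of many genes run through the cAMP response element, TGACGTCA, or its core TGACG. They lie at chr19:56721867-56722166 for Adrb1, chr19:60889499-60889798 for Grk5 and chr13:108653927-108654226 for Pde4d, and capitals mark a core motif.
Adrb1: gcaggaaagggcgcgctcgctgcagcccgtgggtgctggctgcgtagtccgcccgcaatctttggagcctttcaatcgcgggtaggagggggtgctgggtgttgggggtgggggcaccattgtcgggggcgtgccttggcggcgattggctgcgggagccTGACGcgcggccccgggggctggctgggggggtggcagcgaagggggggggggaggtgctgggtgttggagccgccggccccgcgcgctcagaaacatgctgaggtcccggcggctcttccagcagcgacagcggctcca
Grk5: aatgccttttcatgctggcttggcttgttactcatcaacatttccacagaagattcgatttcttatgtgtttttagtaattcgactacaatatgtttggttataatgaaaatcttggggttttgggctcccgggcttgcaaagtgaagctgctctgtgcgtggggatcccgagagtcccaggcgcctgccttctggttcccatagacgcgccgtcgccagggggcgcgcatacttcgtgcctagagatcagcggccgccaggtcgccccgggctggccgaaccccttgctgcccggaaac
Pde4d: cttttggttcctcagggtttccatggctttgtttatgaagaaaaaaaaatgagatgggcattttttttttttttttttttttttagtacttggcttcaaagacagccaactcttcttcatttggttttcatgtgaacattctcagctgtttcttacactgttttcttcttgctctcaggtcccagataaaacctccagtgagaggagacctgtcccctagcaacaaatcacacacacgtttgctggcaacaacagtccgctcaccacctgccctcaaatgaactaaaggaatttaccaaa
The Adrb1 window holds 1 core motif, 90 bases before the start, and the Grk5 and Pde4d windows hold none. The full element was in none of the matched windows. Shares were counted on both strands over 32851 promoters of the same length, with those of 1 chromosome left out. Of these, 20.81% held the core motif and 1.79% the full element, which contains the core motif. The E-box CACGTG was in none of the 3 windows printed and in 7.15% of the 32851 promoters. A match describes letters in a window, not a bound factor, and Pde4d has other promoters than the one listed. The Adra2a window, chr19:54045009-54045308, held 1 core motif and 1 E-box, and the 3 windows listed for Grk6 held no motif of the 3. Adrb3, Adra1a, Grk3 and Pde3b are named only.

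The labels and libraries were checked first. Total counts ran from 26059635 to 53923009 per library. Il33 stood at 0.0791 to 0.471 counts-per-million (CPM, scaled between libraries by TMM) in knockout inguinal libraries and 3.45 to 4.61 in wild-type ones. In brown tissue it stood at 0.413 to 1.75 CPM in libraries labelled knockout and 1.73 to 3.21 in wild-type ones, which overlap, and its difference did not pass (log2 change -1.08, edgeR adjusted p = 0.229). The brown group is therefore called labelled knockout throughout. Its library 1 lay apart, at -37 on the first principal component of the brown libraries (42.1% of the variance), against 24.8 to 51.4 for the other 3 libraries of its group and -26.6 to -19.3 for the wild-type ones. Each brown result below that rests on it is given with and without that library. The adipocyte markers, Adipoq and Plin1 among them, summed to 9401 CPM or more in each of the 15 libraries, as labels of adipose tissue say. That list does not tell brown from inguinal fat. Skeletal muscle markers were present in brown libraries too, at a summed 2532 to 4455 CPM in labelled knockout and 2588 to 4463 CPM in wild-type ones.

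**Figure D1:**
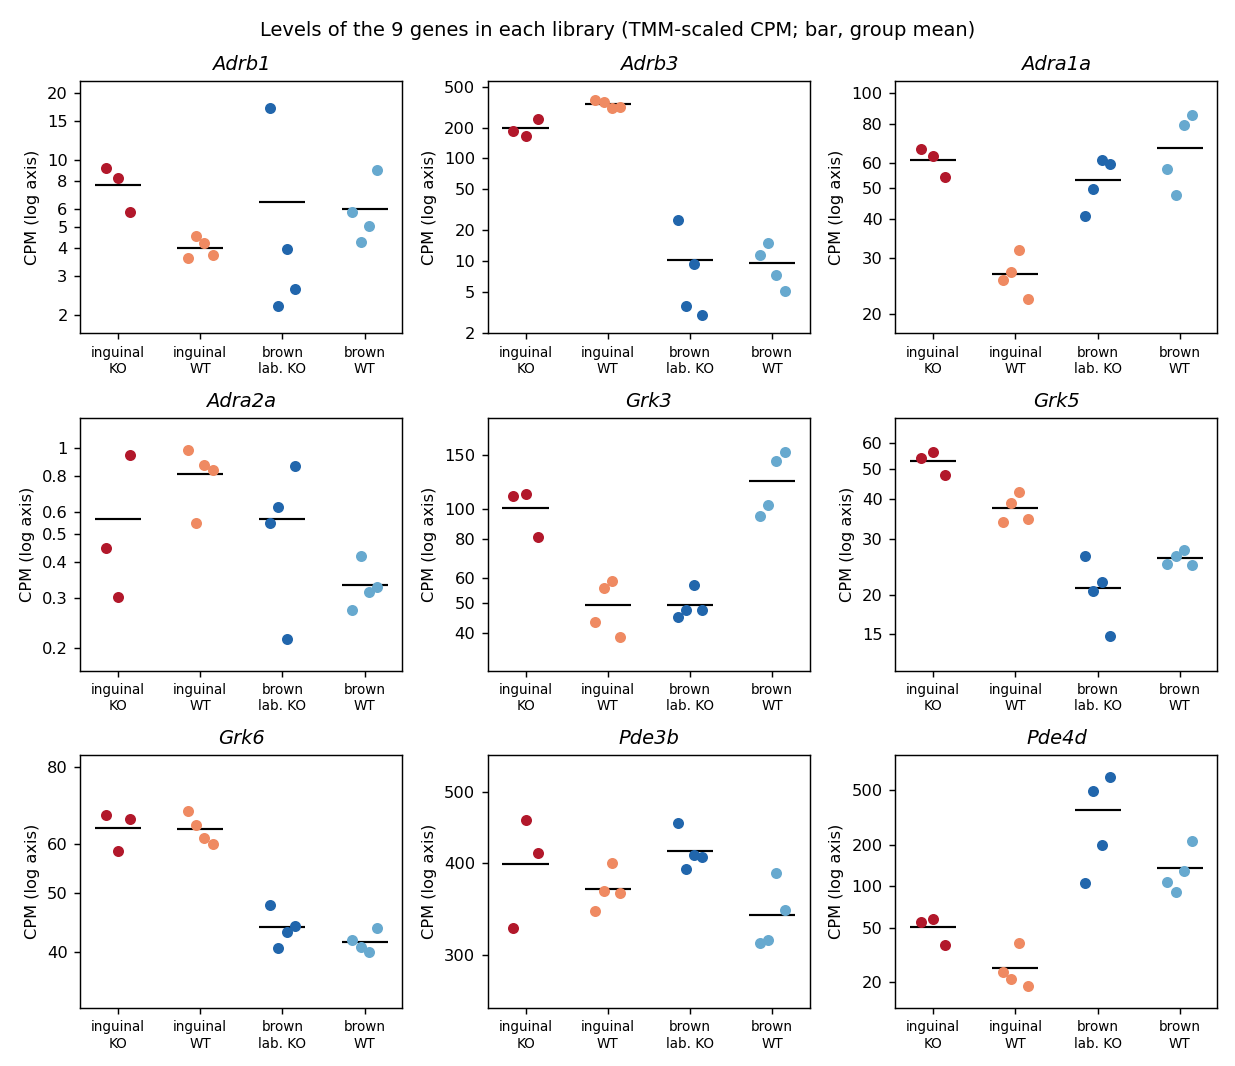
Level of each of the 9 genes in each library, in TMM-scaled CPM on a log axis, for knockout and wild-type inguinal tissue of day 24 (3 and 4 libraries) and labelled knockout and wild-type brown tissue of day 0.5 (4 each). Points are libraries and bars are group means. Adra1a and Grk3 separate the inguinal groups, and 1 labelled knockout brown library holds 17.1 CPM of Adrb1.

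Adrb3 (ENSMUSG00000031489) encodes the beta3-adrenergic receptor, in rodents a receptor largely confined to adipocytes. It stood at 187, 166 and 242 CPM in knockout inguinal libraries 2 to 4, against 371, 351, 311 and 314 CPM in wild-type libraries 1 to 4. Every knockout library was below every wild-type library. The log2 change was -0.75 (SE 0.12, edgeR quasi-likelihood test, adjusted p = 0.000516), on means of 198 ± 39.1 CPM in knockout and 337 ± 29.2 CPM in wild-type tissue (SD, n = 3 and 4). In the annotation of GRCm38, 480 bases of its exons lie opposite the antisense gene Gm45470. The library kit keeps strand, but the strand setting of the counting is not given, so reads of such a pair cannot be assigned here.

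In brown tissue Adrb3 was low and scattered. It stood at 25, 3.72, 9.47 and 3.04 CPM in labelled knockout libraries 1 to 4, against 11.5, 15, 7.34 and 5.13 CPM in wild-type libraries 1 to 4. The groups overlapped and the highest value was that of the library that lay apart. The log2 change was 0.08 (SE 0.64, edgeR adjusted p = 0.960), and -0.85 (SE 0.50, adjusted p = 0.281) without that library. The effect of the knockout on Adrb3 in inguinal tissue minus that in brown tissue was -0.85 on the log2 scale (SE 0.77, adjusted p = 0.516), so a difference between the depots was not shown.

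Adrb1 (ENSMUSG00000035283) encodes the beta1 receptor, which brown preadipocytes and the heart also use. Its levels were 9.16, 8.27 and 5.80 CPM in knockout inguinal libraries, against 3.61, 4.52, 4.23 and 3.73 CPM in wild-type ones. All 3 knockout libraries lay above all 4 wild-type libraries, a change opposite in sign to that of Adrb3. The log2 change was 0.96 (SE 0.18, edgeR adjusted p = 0.00125), which is 1.94-fold. Since each library held only 111 to 265 reads of the gene, its level was measured less precisely than that of Adrb3, which had at least 4945 reads per inguinal library.

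The brown libraries held 17.1, 2.19, 3.95 and 2.62 CPM of Adrb1 in the labelled knockout group, against 5.83, 4.26, 5.02 and 8.98 CPM in the wild-type group. Labelled knockout library 1 had the highest level of all 15 libraries, and the other 3 lay below every wild-type library. With all 8 libraries the log2 change was 0.09 (SE 0.62, edgeR adjusted p = 0.954). Without library 1 it was -1.05 (SE 0.30, adjusted p = 0.0362), on 2.92 ± 0.919 CPM (SD, n = 3). The difference between depots likewise depended on it: the inguinal effect minus the brown effect was 0.85 (SE 0.76, adjusted p = 0.511) with that library and 2.0 (SE 0.36, adjusted p = 0.000877) without it.

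Set side by side per length of exon, the balance of the beta receptors differed between the groups. The ratio of Adrb3 to Adrb1, both in CPM per kilobase of exon, was 20.1 to 41.8 in knockout inguinal libraries and 73.5 to 103 in wild-type inguinal libraries. It was 1.16 to 2.40 in labelled knockout brown libraries and 0.572 to 3.52 in wild-type brown libraries. In inguinal tissue the ranges did not overlap and Adrb3 was the more abundant of the pair in all 7 libraries. In brown tissue the ranges overlapped, and the labelled knockout library with 17.1 CPM of Adrb1 was high in Adrb3 as well.

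Adra1a (ENSMUSG00000045875) encodes the alpha1A receptor, a Gq-coupled receptor that signals through calcium. It had 66.7, 63.3 and 54.2 CPM in knockout inguinal libraries, against 25.7, 27.2, 31.9 and 22.3 CPM in wild-type ones. The groups were well apart: the lowest knockout value was above the highest wild-type value by more than the range within either group. At a log2 change of 1.21 with SE 0.12 and an edgeR adjusted p of 1.25e-05, Adra1a had the smallest p of the 9 genes in this comparison.

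In brown tissue Adra1a stood at 40.9, 49.8, 61.6 and 59.5 CPM in labelled knockout libraries, against 57.4, 47.7, 79.0 and 85.1 CPM in wild-type ones. The groups overlapped (log2 change -0.35, SE 0.20, edgeR adjusted p = 0.376; -0.25 without library 1). The inguinal effect minus the brown effect was 1.54 (SE 0.26, adjusted p = 0.00242), and 1.45 (adjusted p = 0.000899) without library 1, so the response of Adra1a differed between the depots.

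Adra2a (ENSMUSG00000033717) encodes the Gi-coupled alpha2A receptor, a brake on lipolysis. It was the scarcest of the 9 genes per length of exon, with 58 reads over the 3 knockout and 127 over the 4 wild-type inguinal libraries. Knockout levels of 0.449, 0.303 and 0.949 CPM overlapped the wild-type levels of 0.986, 0.547, 0.877 and 0.843 CPM (log2 change -0.48, SE 0.40, edgeR adjusted p = 0.400). Among the brown libraries, labelled knockout ones had 0.550, 0.625, 0.216 and 0.866 CPM and wild-type ones 0.271, 0.420, 0.315 and 0.327 CPM (log2 change 0.75, SE 0.41, adjusted p = 0.357). Single libraries held 8 to 47 reads, where counting error alone is large: 8 reads have an exact 95% Poisson interval of 3.45 to 15.8 reads. Per kilobase of exon, Adrb3 exceeded Adra2a 365-fold to 786-fold in knockout and 507-fold to 918-fold in wild-type inguinal libraries.

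Grk3 (ENSMUSG00000042249, also known as Adrbk2) encodes a receptor kinase that is drawn to the membrane by free G-protein beta-gamma subunits. It was the only one of the 9 genes to pass in both depots, with opposite signs. In inguinal tissue it stood at 110, 112 and 81.6 CPM in knockout libraries, against 43.4, 55.9, 58.8 and 38.8 CPM in wild-type libraries. In brown tissue it stood at 45.1, 47.3, 56.9 and 47.4 CPM in labelled knockout libraries, against 95.3, 103, 143 and 153 CPM in wild-type libraries. The groups did not overlap in either depot, and the labelled knockout brown libraries lay in the range of the wild-type inguinal ones.

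The inguinal log2 change of Grk3 was 1.06 (SE 0.15, edgeR adjusted p = 0.000503) and the brown one -1.34 (SE 0.17, adjusted p = 0.0255). The brown change was of the same size without library 1 (-1.30, SE 0.18, adjusted p = 0.00283). The call was lost, at log2 changes between -1.42 and -1.25, when labelled knockout library 2 (adjusted p = 0.0873) or 4 (0.115) or wild-type library 2 (0.0516) or 3 (0.0857) was left out. The difference between the depots, inguinal minus brown, was 2.37 (SE 0.25, adjusted p = 7.01e-05), and its adjusted p stayed between 5.21e-05 and 0.000704 with each library left out in turn. Grk3 levels differed between the wild-type depots too, as given further on.

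Grk5 (ENSMUSG00000003228) belongs to the other GRK subfamily, whose members bind the membrane without beta-gamma subunits. Its levels were 54.1, 56.2 and 47.7 CPM in knockout inguinal libraries, against 34, 38.9, 42.3 and 34.6 CPM in wild-type ones, with no overlap (log2 change 0.51, SE 0.10, edgeR adjusted p = 0.00223). In brown tissue they were 26.6, 20.5, 22.0 and 14.8 CPM in labelled knockout libraries, against 25, 26.6, 27.7 and 24.9 CPM in wild-type ones. There, 3 labelled knockout libraries lay below all wild-type libraries and library 1 lay within their range. The brown log2 change was -0.32 (SE 0.16, adjusted p = 0.321), and -0.45 (SE 0.14, adjusted p = 0.0465) without library 1.

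The inguinal effect on Grk5 minus the brown effect was 0.81 (SE 0.20, edgeR adjusted p = 0.0213). That call was lost without inguinal knockout library 2 (adjusted p = 0.0563) or 3 (0.0709), and the value without brown library 1 was 0.95 (adjusted p = 0.00095).

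Grk6 (ENSMUSG00000074886), of the same subfamily as Grk5, was nearly level between genotypes. It had 66.9, 58.5 and 66 CPM in knockout inguinal libraries, against 67.9, 64.4, 61.3 and 60.1 CPM in wild-type ones. Its brown levels were 47.8, 40.6, 43.1 and 44.1 CPM in labelled knockout libraries, against 41.8, 40.8, 40 and 43.8 CPM in wild-type ones. The log2 changes were 0.02 (SE 0.09, edgeR adjusted p = 0.883) in inguinal and 0.07 (SE 0.09, adjusted p = 0.707) in brown tissue. The groups overlapped in both depots, and the standard errors were the smallest among the 9 genes in both.

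Compared per kilobase of exon, the make-up of the 3 kinases shifted with Grk3. The ratio of Grk3 to Grk6 was 0.598 to 0.922 in knockout and 0.309 to 0.463 in wild-type inguinal libraries. In brown tissue it was 0.457 to 0.638 in labelled knockout and 1.10 to 1.73 in wild-type libraries. Grk3 was thus above Grk6 in all 4 wild-type brown libraries and below it in all the other 11 libraries.

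Pde4d (ENSMUSG00000021699) encodes a cAMP-specific phosphodiesterase with many isoforms, which gene counts add together. It stood at 55.3, 58.1 and 37.4 CPM in knockout inguinal libraries, against 23.6, 21.2, 38.4 and 18.7 CPM in wild-type ones. Knockout library 4 lay just below wild-type library 3, so the groups overlapped. The log2 change of 1.0 (SE 0.26, edgeR adjusted p = 0.021) passed, but the call was lost without knockout library 2 (adjusted p = 0.142) or 3 (0.0691) or wild-type library 1 (0.0577).

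The brown levels of Pde4d were higher and far more spread: 106, 497, 201 and 628 CPM in labelled knockout libraries, against 108, 90.4, 130 and 214 CPM in wild-type libraries. Labelled knockout libraries 2 and 4 were above every wild-type library, library 3 was within the wild-type range, and library 1 was at its low end. The log2 change was 1.39 (SE 0.52, edgeR adjusted p = 0.203), and 1.70 (SE 0.43, adjusted p = 0.0368) without library 1. Inguinal minus brown, the effect differed by -0.42 (SE 0.68, adjusted p = 0.741), so no difference between the depots was shown.

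Pde3b (ENSMUSG00000030671), the insulin-regulated phosphodiesterase stood at 326, 459 and 413 CPM in knockout inguinal libraries, against 344, 367, 400 and 364 CPM in wild-type ones, which overlap (log2 change 0.13, SE 0.11, edgeR adjusted p = 0.425). In brown tissue it had 454, 393, 410 and 408 CPM in labelled knockout libraries, against 311, 314, 388 and 346 CPM in wild-type ones. The brown groups did not overlap, but the log2 change of 0.29 (SE 0.11, adjusted p = 0.199) did not pass. Per kilobase of exon, the ratio of Pde4d to Pde3b was 0.0688 to 0.129 in knockout and 0.0391 to 0.073 in wild-type inguinal libraries. It was 0.177 to 1.17 in labelled knockout and 0.218 to 0.469 in wild-type brown libraries, and 1 library labelled knockout held more Pde4d than Pde3b on this scale.

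Of the 9 genes, 5 rose and 1 fell in knockout inguinal tissue, and 28.6% of all 15710 genes tested passed there (15.3% higher, 13.3% lower). The median log2 change of the 9 was 0.51, beside -0.02 over all genes. The groups did not overlap for 5 of the 9 (4 higher, 1 lower), as for 36.8% of all genes (18.3% higher, 18.5% lower). In brown tissue 1 of the 9 passed, as lower, and 0.26% of 15796 genes did (0.184% higher, 0.076% lower), 41 in all, with 2930 at an unadjusted p below 0.05. There the groups did not overlap for 2 of the 9 (1 higher, 1 lower), as for 9.74% of all genes (4.88% higher, 4.86% lower), and the median log2 change was 0.08 beside 0.01 over all genes. Without library 1, 4 of the 9 passed (Adrb1, Grk3 and Grk5 lower, Pde4d higher), as did 18.1% of all genes (9.66% higher, 8.41% lower). For the difference between depots 3 of the 9 passed (Grk3, Adra1a and Grk5, each with the more positive effect in inguinal tissue), as did 9.0% of all genes (4.8% higher, 4.2% lower). Without brown library 1 it was 4, with Adrb1, beside 21.2% of all genes.

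A few settings ended calls. When all 4 groups shared 1 estimate of the spread, the inguinal calls of Adrb1 (edgeR adjusted p = 0.287), Adrb3 (0.401) and Pde4d (0.218) were lost, and that of Pde4d was also lost with no filter on low counts (0.0928). In brown tissue limma-voom with library weights called Grk5 (0.0319) and Pde4d (0.0244) beside Grk3 (0.00318), and put the log2 change of Adrb1 at -1.07 (0.0601).

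**Figure D2:**
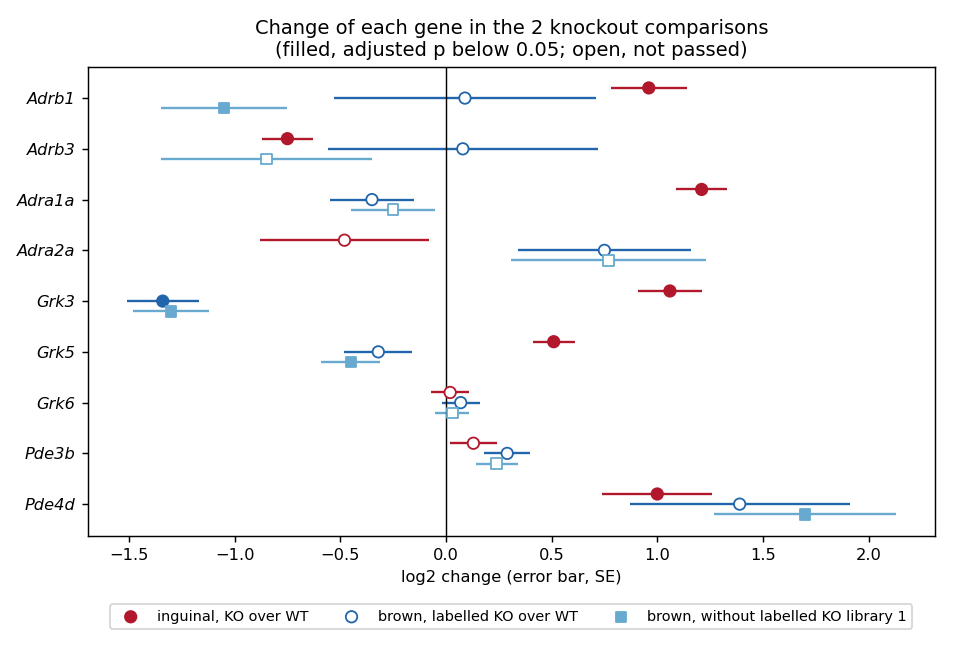
Log2 change of each gene in knockout over wild-type tissue, with its standard error as a bar, for inguinal tissue of day 24, brown tissue of day 0.5 (labelled knockout) and brown tissue without labelled knockout library 1; filled symbols have an adjusted p below 0.05. Grk3 lies on opposite sides of 0 in the depots (1.06 and -1.34), and the brown value of Adrb1 lies on opposite sides of 0 with and without that library (0.09 and -1.05).

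Other cell-type markers moved with genotype in inguinal tissue, and their part in these results was not tested. Of 10 skeletal muscle markers 9 fell, to a summed 101 to 113 CPM in knockout libraries, against 212 to 464 CPM in wild-type ones. Among nerve and Schwann cell markers, S100b was higher, and Th, the noradrenaline-synthesis enzyme of sympathetic nerves, was at 0 reads in the knockout group and 3 in the wild-type group. Endothelial markers (3 of 6 lower) summed to 753 to 823 CPM in knockout and 858 to 1043 CPM in wild-type libraries, smooth muscle markers (3 of 6 lower) to 476 to 525 and 530 to 749 CPM, and B-cell markers (2 of 7 lower) to 5.05 to 13.6 and 11.8 to 21.5 CPM. Skin and mammary epithelium markers summed to 0.941 to 1.27 CPM in knockout and 3.14 to 9.85 CPM in wild-type libraries, and adipose progenitor markers (1 of 6 higher, 2 lower) to 379 to 471 and 451 to 584 CPM.

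The brown and beige adipocyte list rose in 5 of 7 genes in knockout inguinal tissue, summing to 2743 to 3511 CPM in knockout and 1328 to 2050 CPM in wild-type libraries. Ucp1 itself averaged 1912 ± 256 CPM in knockout and 820 ± 205 CPM in wild-type tissue (SD, n = 3 and 4). The general adipocyte list summed to 17409 to 18495 CPM in knockout and 17654 to 19778 CPM in wild-type libraries, ranges that overlap. In brown tissue no marker passed in any of these lists, while skin and mammary epithelium markers reached 76.1 CPM in labelled knockout library 4, against at most 1.56 CPM in the wild-type libraries. Without brown library 1, 3 of 6 macrophage markers (Cd68, C1qa and Cd163) passed as higher, as did Cox8b of the brown and beige list and Ly6a of the progenitor list. In that setting Adipoq of the adipocyte list, Prdm16 of the brown and beige list, Rgs5 of the smooth muscle and pericyte list, Tek of the endothelial list and Slc18a2 of the nerve list passed as lower. The part of these markers in the brown results was not tested.

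The wild-type libraries show where each gene is used before any knockout, though tissue and age change together between them (inguinal at day 24, brown at day 0.5) and cannot be told apart. Cell content differed as well. Skeletal muscle markers (9 of 10 lower in inguinal tissue, 1 higher) summed to 2588 to 4463 CPM in brown and 212 to 464 CPM in inguinal libraries. Adipocyte markers (6 of 7 higher in inguinal tissue, 0 lower) summed to 10496 to 12416 and 17654 to 19778 CPM. The part of these cells in the differences between depots was not tested. Adrb3 differed most, with 337 ± 29.2 CPM in inguinal and 9.74 ± 4.38 CPM in brown tissue (SD, n = 4 each), a 34.7-fold difference (log2 change 5.12, SE 0.34, edgeR adjusted p = 7.51e-06). Adra2a (log2 change 1.29), Grk6 (0.61) and Grk5 (0.52) were also higher in inguinal tissue. Pde4d was 5.34-fold lower in inguinal tissue (log2 change -2.42, SE 0.35, adjusted p = 0.000604), with 25.5 ± 8.85 CPM in inguinal and 135 ± 54.5 CPM in brown tissue.

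Adra1a and Grk3 were lower in wild-type inguinal than in wild-type brown tissue, by 1.33 each on the log2 scale (SE 0.19 each, edgeR adjusted p = 0.000267 and 0.000307). Grk3 averaged 49.2 ± 9.64 CPM in inguinal and 123 ± 28.7 CPM in brown tissue, and Adra1a 26.8 ± 3.98 CPM in inguinal and 67.3 ± 17.6 CPM in brown tissue. Adrb1 was lower too (log2 change -0.59, SE 0.21, adjusted p = 0.0312), though its groups overlapped. That call was lost without inguinal library 1 (adjusted p = 0.0822), 3 (0.056) or 4 (0.0784) or brown library 4 (0.111), and when all 4 groups shared 1 estimate of the spread (0.367). Pde3b averaged 369 ± 23.2 CPM in inguinal and 340 ± 35.8 CPM in brown tissue, and its difference did not pass (log2 change 0.12, SE 0.09, adjusted p = 0.266). In all, 8 of the 9 passed, 4 in each direction, as did 61.4% of all genes (30.7% in each). The groups did not overlap for 7 of the 9 (4 higher, 3 lower), as for 56.3% of all genes (28.6% higher, 27.7% lower).

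In descending order of the 4 group means, Grk3 had 123 CPM in wild-type brown, 101 CPM in knockout inguinal, and 49.2 CPM in both labelled knockout brown and wild-type inguinal tissue. The last 2 groups overlapped, and so did the first 2. Adra1a had 67.3 CPM in wild-type brown, 61.4 CPM in knockout inguinal, 52.9 CPM in labelled knockout brown and 26.8 CPM in wild-type inguinal tissue, and only the last of these stood clear of its neighbour. For Adrb3 the order was wild-type inguinal, knockout inguinal, then labelled knockout brown and wild-type brown, the last 2 overlapping. For Pde4d the order was labelled knockout brown, wild-type brown, knockout inguinal and wild-type inguinal, and neighbours from the same tissue overlapped.

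Between genes, levels are compared as CPM per kilobase of exon, with the exon lengths of the GRCm38 annotation. In knockout inguinal tissue Adrb3 led with 58.8 ± 11.6, ahead of Pde3b with 43.8 ± 7.37, Grk6 with 15.2 ± 1.09 and Grk3 with 11.6 ± 1.95 CPM per kilobase. In wild-type inguinal tissue Adrb3 stood at 99.7 ± 8.64 and Pde3b at 40.5 ± 2.55 CPM per kilobase, followed by Grk6, Grk3, Grk5, Adra1a, Pde4d, Adrb1 and Adra2a. In both brown groups Pde3b led, with 45.7 ± 2.87 in the labelled knockout group and 37.3 ± 3.92 CPM per kilobase in the wild-type group. Grk3 came next in wild-type brown tissue with 14.2 ± 3.30, and Pde4d in the labelled knockout group with 29.8 ± 20.4 CPM per kilobase. Adra2a was last in all 4 groups, at 0.069 to 0.168 CPM per kilobase.

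**Figure D3:**
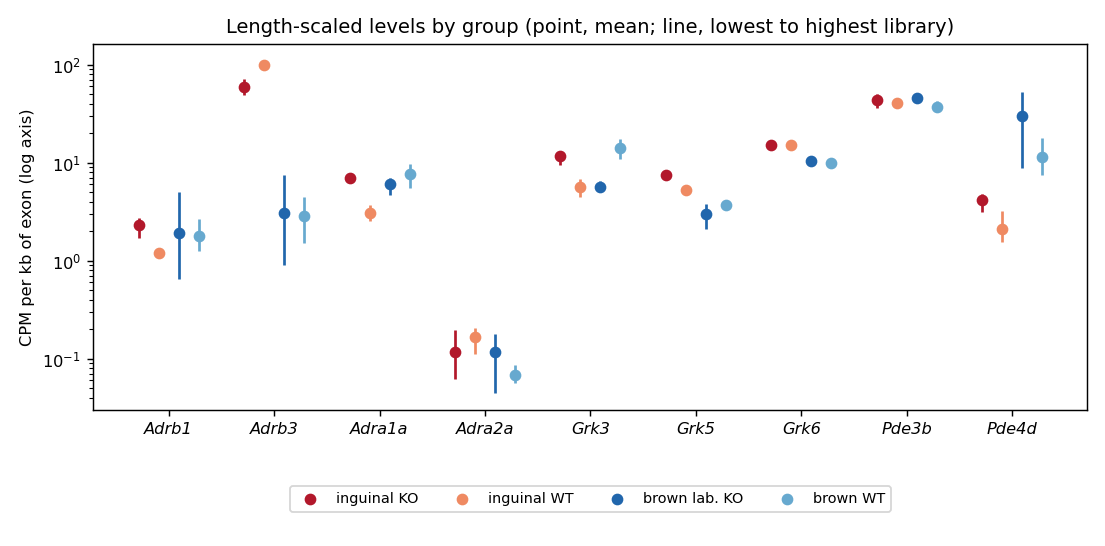
Mean level of each of the 9 genes in each group in TMM-scaled CPM per kilobase of exon on a log axis, with a line from the lowest to the highest library. Adrb3 leads in both inguinal groups (58.8 in knockout and 99.7 in wild type), Pde3b leads in both brown groups (45.7 in labelled knockout and 37.3 in wild type), and Adra2a is last in all 4.

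The other genes of the pathway were taken from 9 lists of 90 genes. In knockout inguinal tissue 20 of the 88 tested rose and 20 fell, a share of 45.5% beside the 28.6% of all genes. The lists were chosen with earlier results of these data known, so this share is not a test of enrichment. Among the receptors, Adra1d, another Gq-coupled alpha1 receptor, rose (log2 change 0.55, edgeR adjusted p = 0.039). Of the 4 other receptor kinases and arrestins, Arrb1 rose (log2 change 0.40, adjusted p = 0.00867) and Arrb2 fell (-0.38, adjusted p = 0.0389). Both arrestins bind phosphorylated receptors.

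Downstream of the receptors, 13 other phosphodiesterases split evenly in knockout inguinal tissue, 3 higher and 3 lower. Pde4a (log2 change 1.07, edgeR adjusted p = 3.11e-05) and Pde8a (0.54, adjusted p = 0.00165) rose, and Pde7a (-0.62, adjusted p = 0.00173) and Pde4b (-0.60, adjusted p = 0.00287) fell, all of them enzymes specific for cAMP. Among 9 adenylyl cyclases tested, the makers of cAMP, 3 fell (Adcy1, Adcy4 and Adcy5) and 1 rose (Adcy9). Of 12 G-protein and RGS genes, Rgs4 (-1.17, adjusted p = 3.43e-05) and Rgs5, which speed the shut-off of Gi and Gq, fell. Gnas, which encodes the Gs alpha subunit, rose (0.69, adjusted p = 0.00318), but its exons overlap genes on the opposite strand.

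Further along the pathway, 3 of 13 genes of the protein kinase A list rose (Prkaca, Prkar2a and Akap1) and 2 fell (Rapgef3 and the inhibitor Pkia, log2 change -0.81, edgeR adjusted p = 0.00365). The list of lipolysis genes had 3 of 6 higher and none lower: Pnpla2, the first triglyceride lipase (0.71, adjusted p = 0.00144), its inhibitor G0s2 (0.90, adjusted p = 0.000281) and the droplet coat Plin1 (0.52, adjusted p = 0.00677). Of 13 genes of cAMP-responsive transcription, 2 rose (Crtc1 and Crtc3) and 3 fell (Crem, Nr4a3 and Sik1, the last at -1.20 with adjusted p = 0.00223). The 14 other receptors found on adipocytes split 5 and 5, with Tshr, the thyrotropin receptor, at 1.28 (adjusted p = 1.54e-06) and the adenosine receptor Adora2a at -1.10 (adjusted p = 3.33e-05). Leaving out single libraries ended the calls of Adra1d, Arrb2, Rgs5, Adcy1, Adcy9, Akap1, Prkaca, Crem, Crtc1 and Crtc3. When all 4 groups shared 1 estimate of the spread, these calls were lost too, and so were those of G0s2 (edgeR adjusted p = 0.621), Plin1 (0.443), Pde4b (0.274), Sik1 (0.229), Gnas (0.137), Pkia (0.126), Adcy5 (0.109) and Arrb1 (0.0605). Under that fit Pnpla2 was the one of the 3 lipolysis genes that still passed.

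In brown tissue 1 of 86 tested pathway genes passed, beside 0.26% of all genes: Rgs1, at a log2 change of 3.69 (edgeR adjusted p = 0.0414). It had 16 reads in the whole wild-type group, and its call was lost when any library other than labelled knockout library 1 was left out. Without library 1, 14 of the 86 were higher and 19 lower, beside 9.66% and 8.41% of all genes. For the difference between depots 10 of 88 were more positive and 10 more negative in inguinal tissue, beside 4.8% and 4.2% of all genes. Between the wild-type depots 32 of 87 were higher and 27 lower in inguinal tissue, a share of 67.8% that is near the 61.4% of all genes. The same libraries enter several of these comparisons, so their counts are not independent of each other.

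**Figure D4:**
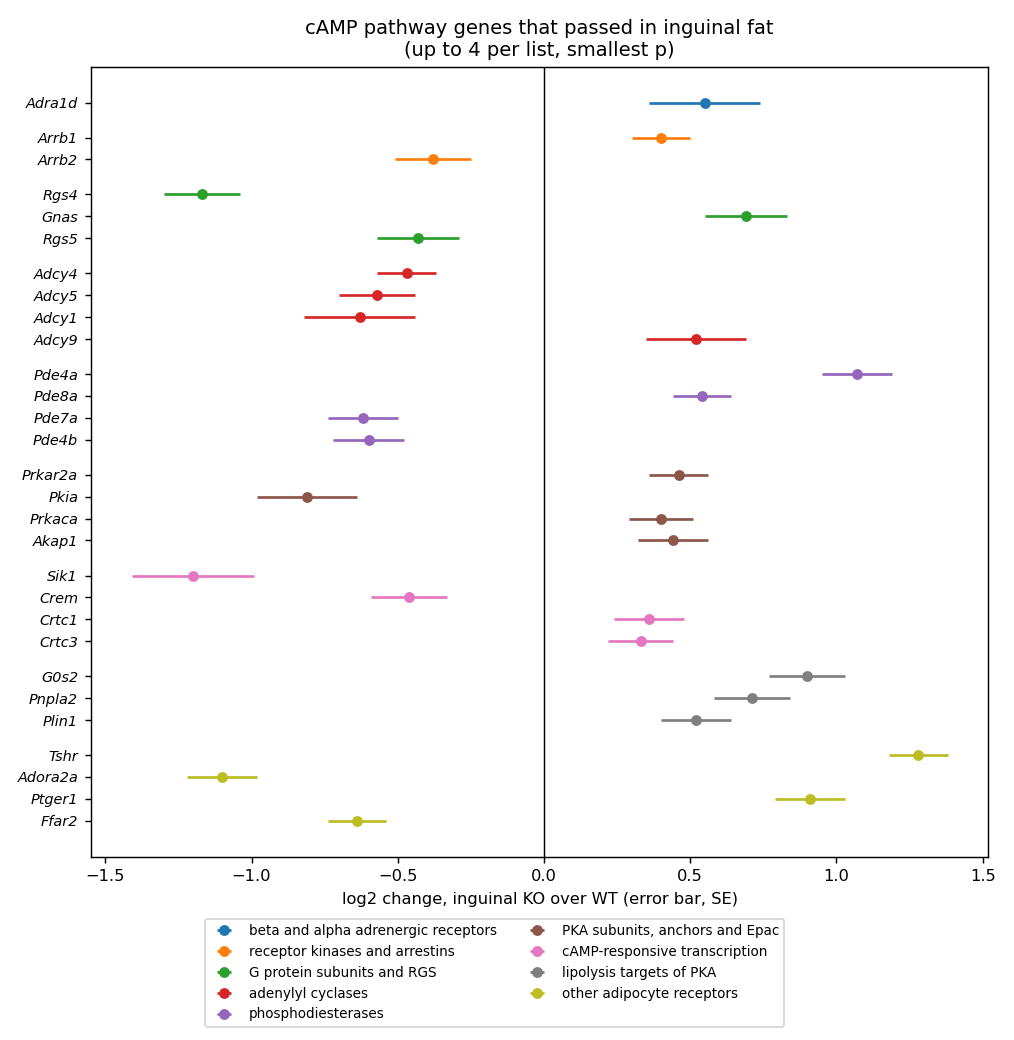
Log2 change in knockout over wild-type inguinal tissue, with its standard error as a bar, of up to 4 genes of each pathway list that passed at an adjusted p below 0.05, taken by smallest p and coloured by list. Values run from -1.20 for Sik1 to 1.28 for Tshr, and the 3 lipolysis genes shown all lie above 0.

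Genes whose pattern over all 15 libraries was most like that of Adrb3 and Grk3 were found by the root mean square difference of log2 CPM after centring each gene, over 12486 genes. Among the nearest to Adrb3 were Igfals (0.52), Slc25a10 (0.55), Hoxc8 (0.62) and Mmp3 (0.76), where Adrb3 itself varied by 2.57 about its mean on this scale. Hoxc8 is a homeobox gene of body position. The likeness came mainly from the gap between the tissues: Igfals and Mmp3 were also lower in knockout inguinal tissue, while Slc25a10 (log2 change 0.23, edgeR adjusted p = 0.14) and Hoxc8 (-0.07, adjusted p = 0.633) did not pass.

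Nearest to Grk3 were Fbp2 (0.24), Ptger1 (0.32), Lurap1 (0.33), Plbd1 (0.33) and Lipa (0.36), where Grk3 varied by 0.64 about its mean. Fbp2, a muscle-type fructose bisphosphatase, averaged 7.76 ± 2.27 CPM in knockout and 3.01 ± 0.529 CPM in wild-type inguinal tissue, and 4.34 ± 0.81 CPM in labelled knockout and 10.2 ± 3.62 CPM in wild-type brown tissue. All 5 rose in knockout inguinal tissue. None passed in brown tissue, where their edgeR adjusted p ran from 0.072 to 0.241. Exons of Lurap1 overlap those of Pomgnt1 on the opposite strand by 592 bases, and Ptger1 also has exons with another gene opposite them, so both are uncertain. These likenesses share libraries, depth and tissue, and describe a pattern only.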

How the data were processed

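Gene expression was measured in 15 adipose libraries made with a stranded mRNA kit, per the labels' protocols. The table deposited by the authors holds whole-number raw counts, not normalized. The build was mm9 and the tools TopHat2 2.1.0, edgeR, Subread and featureCounts, per the submitters' processing notes. Neither an annotation release nor a strand setting is given in the sources used here. Symbols and exon lengths came from a GRCm38 annotation, which matched 32919 of 37991 identifiers, so no coordinates of counted genes are given.

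Each comparison was fitted over all genes in R 4.3.3 with edgeR 4.0.16 (filterByExpr with a minimum count of 10, TMM scaling, robust quasi-likelihood F-test). The threshold was 0.05 on p-values adjusted by Benjamini-Hochberg. The standard error (SE) is the log2 change over the square root of F. Levels are CPM with 1 TMM scaling over the 15 libraries, and ± is the SD. The fits were tested on simulated counts. In each comparison 67 genes were changed by 1.5-fold, 67 by 2-fold and 66 by 4-fold. In the data 4498 genes passed in the inguinal comparison and 9814 in the wild-type one, so the simulated shares need not hold there. In the simulations, 88.1% of 2-fold changes were recovered in the inguinal comparison, 46.3% in the brown one and 29.9% in the difference between depots. False calls made up 7.51%, 7.69% and 4.05% of the calls. In the wild-type comparison the values were 71.6% and 8.33%. Counts of calls in the depots therefore do not compare like with like. Alternatives were DESeq2 1.42.0 size factors and Wald test, limma-voom (limma 3.58.1), no filter or a filter at 5 CPM, non-robust dispersions, a replicate block, a single fit of all groups, and each library left out in turn. The samples were grouped by the labels. No pair of libraries of a group agreed within sampling noise.

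The 9 genes and the gene lists were chosen with earlier results of these data known. Beside the 9, the rule named up to 4 genes of each list by smallest p in inguinal tissue and up to 2 in brown tissue, and the 5 genes most like Adrb3 and Grk3. Some genes it picked are not reported here. Other genes are named, after their values were seen, to complete counts of 5 or fewer. Of 181 list entries 179 matched a gene. Intervals on counts cover counting error only.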

Additional observations from a re-analysis of the deposited data

Results flagged for a closer look

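Adrb1 in labelled knockout brown library 1 stood at 17.1 CPM, against 2.19 to 3.95 CPM in the other 3 libraries of its group and 4.26 to 8.98 CPM in wild-type brown libraries. Its gap to the next library exceeded the 95% limit of Dixon's test for a group of 4. The test was run on 27 groups, and chance marks about 1 in 20. The same library lay apart on the first principal component and had the highest Adrb3 of the brown libraries.

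The change from wild type to knockout, as labelled, differed between the depots for 3 genes by a test of the difference itself. Inguinal minus brown, it was 2.37 for Grk3, 1.54 for Adra1a and 0.81 for Grk5 on the log2 scale. The call of Grk5 was lost without inguinal knockout library 2 (edgeR adjusted p = 0.0563) or 3 (0.0709). Depot and age change together between these groups and cannot be told apart.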

How the results depend on the processing

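The inguinal comparison called 4498 genes and 6 of the 9. With all 4 groups in 1 fit it called 2249 genes and 3 of the 9. The brown comparison called 41 genes and 1 of the 9. With no filter it called 67 genes, under DESeq2's Wald test 1032, by limma-voom 3127 and 3 of the 9, with all 4 groups in 1 fit 1151, and with the replicate block 7. Leaving out 1 library gave 2 to 2905 genes and 0 to 4 of the 9. The difference between depots called 1517 genes, 2351 with the Wald test, 3696 with limma-voom, 864 with the replicate block and 632 to 3571 with 1 library left out. Without labelled knockout brown library 1, an alternative chosen after seeing the data for the lists, 33 other pathway genes passed in brown tissue against 1 with it, and 34 in the difference against 20. The causes were not tested.

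Signs changed for 3 genes that had not passed. Grk6 in inguinal tissue was -0.01 with a filter at 5 CPM and with limma-voom, and -0.02 to 0.08 with 1 library left out. In brown tissue Adrb1 was -1.07 with limma-voom, -0.40 with the replicate block and -1.05 to 0.37 with 1 library left out, and Adrb3 was -0.77, -0.29 and -0.85 to 0.39 under the same settings. For the difference between depots Adrb3 was 0.01 with limma-voom and -1.16 to 0.09 with 1 library left out. The direction of each of the other named results held. Calls of named results were lost 58 times with 1 library left out and 30 times under the other settings. Same-numbered libraries did not deviate together (r from -0.072 to 0.033 in inguinal and -0.036 to 0.141 in brown tissue), so the numbers were not taken to pair the libraries. Under the replicate block Grk3 in brown tissue kept its call (adjusted p = 0.0471) and Arrb2 in inguinal tissue lost it (0.0541). The 5 CPM filter removed Adra2a, and in the comparison of the wild-type depots also Adrb1. DESeq2 gave no adjusted p for Adrb1 in brown tissue or in the difference. Depth limits Adra2a most, with 8 to 47 reads per library.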

Other observations

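Without labelled knockout brown library 1, 6 of 13 genes of cAMP-responsive transcription were higher in labelled knockout than in wild-type brown tissue (Crem, Crtc2, Crtc3, Nr4a1, Nr4a3 and Per1) and none lower. In the same setting 7 of 14 other adipocyte receptors were lower (Ptger1, Ptger3, Hcar1, Hcar2, Ffar2, Tshr and Sucnr1) and 2 higher (Adora2a and Npy1r), and 4 of 13 genes of the protein kinase A list were lower (Prkaca, Prkar2b, Akap1 and Pkia). With all 8 brown libraries none of these genes passed. The background in that setting was 9.66% of all genes higher and 8.41% lower.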
